A study of Mus musculus with 6 samples.

Results

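The BCL2 family genes considered here were 10 named genes of the mitochondrial apoptosis pathway, taken by symbol from the 55421 genes counted in each library. They comprised 5 pro-survival genes (Bcl2, Bcl2l1, Mcl1, Bcl2a1b and Bcl2a1d), the 2 effectors Bax and Bak1, and 3 BH3-only genes (Bcl2l11, Bid and Bbc3). All 10 passed the filter on low counts, which kept 13849 genes. They were measured in splenic monocytes of C57BL/6 mice that either lacked the alpha chain of the IL-4 receptor in every cell (IL-4Rα-/-) or carried both copies of it (IL-4Rα+/+), as 6 libraries from 6 mice, 3 of each genotype. Neither genotype received a treatment, the labels give no age for single mice, and the deletion in IL-4Rα-/- mice is not limited to monocytes. The comparison addressed whether the absence of IL-4Rα changes the transcripts that set the survival of these cells.

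BCL2 family proteins decide at the outer mitochondrial membrane whether a cell enters apoptosis. BAX and BAK, once active, open pores through which cytochrome c leaves, and the pro-survival proteins BCL2, BCL-xL, MCL1 and A1 hold them in check. BH3-only proteins such as BIM, BID and PUMA relay stress signals by occupying the pro-survival proteins or by activating the effectors, and this balance is known to bear on how long monocytes live.

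Between 26807281 and 29033297 reads per library were counted on genes, and 1 count corresponded to 0.0344 to 0.0373 CPM (counts scaled by TMM to a common library total). The monocyte markers were high in every library, with 15947 to 22979 CPM summed over 10 genes in IL-4Rα+/+ and 18843 to 23998 CPM in IL-4Rα-/- mice. Il4ra, the deleted gene, read 137, 128 and 177 CPM in IL-4Rα+/+ replicates 1, 2 and 3 against 27.9, 79.4 and 31.8 CPM in IL-4Rα-/- replicates 1, 2 and 3. The genotypes did not overlap, but the log2 fold change of -1.67 (SE 0.41) had an adjusted p of 0.618 in edgeR and of 0.0111 in DESeq2. IL-4Rα-/- replicate 2 stood apart, as it kept the most Il4ra reads among the IL-4Rα-/- libraries and held most of the pancreatic enzyme reads, 285 CPM over 10 genes against at most 31.3 CPM elsewhere. Values without it are therefore given beside the member results. The labels do not say more of the mice than their genotype and strain. The p-values set the difference between the genotypes against the spread among mice of the same genotype, for these 6 animals.

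None of the members passed the threshold of an adjusted p of 0.15 in edgeR's quasi-likelihood test (0 of 10), and neither did any of the 13849 genes tested (0%). At an unadjusted p under 0.05 there were 0 members, against 8.09% of all genes tested, 4.37% lower and 3.72% higher in IL-4Rα-/- monocytes. DESeq2 called 0 of the 10 members and 80 genes in all, which is 0.571%. The median log2 fold change of the members was -0.11, with 7 lower and 3 higher in IL-4Rα-/- monocytes, and that of all genes tested was 0.01. The genotypes did not overlap in 1 of 10 members, Bax, against 15.5% of all genes tested, 7.87% lower and 7.63% higher. The absence of a call does not show that the levels were the same, and the intervals below give the differences that the 6 libraries leave possible.

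**Figure D1:**
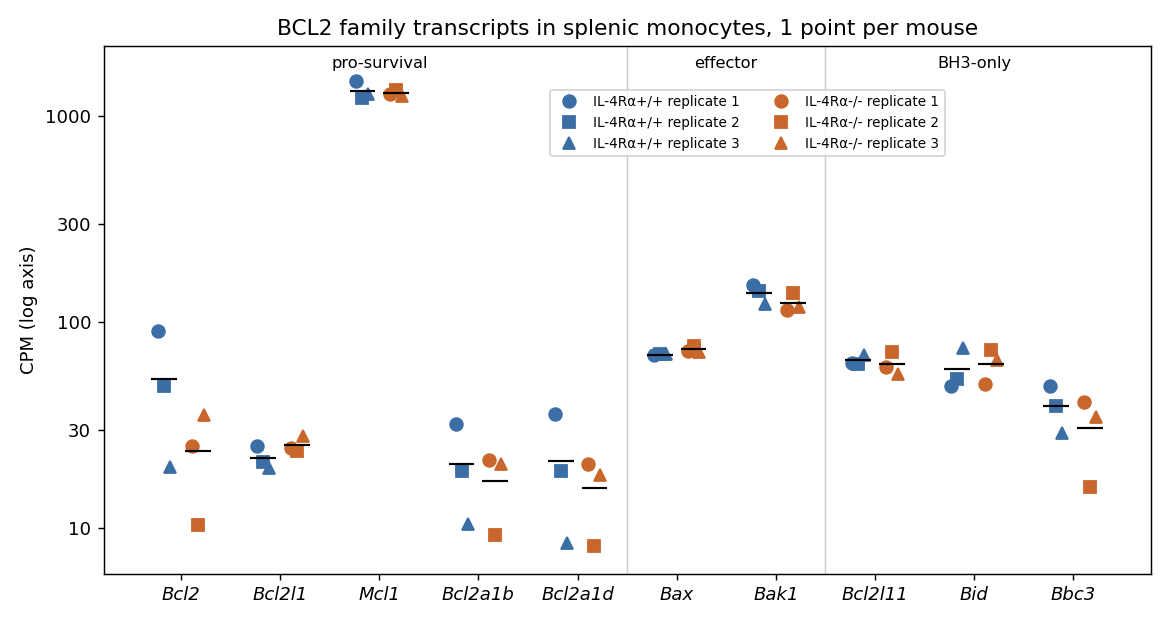
CPM of the 10 BCL2 family genes on a log axis, with 1 point per mouse, colour for genotype, symbol for replicate number and a black line for the mean of 3 mice. Bcl2 runs from 10.3 to 90.3 CPM across mice, while Bax stays between 69.0 and 76.7 CPM.

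Mcl1 was by far the most abundant transcript of the family. The gene lies on the plus strand at chr3:95658788-95663176 (ENSMUSG00000038612, GRCm38, as for all positions given here) and encodes a short-lived pro-survival protein. Its level was 1478, 1226 and 1286 CPM in IL-4Rα+/+ replicates 1, 2 and 3 and 1284, 1347 and 1261 CPM in IL-4Rα-/- replicates 1, 2 and 3. All IL-4Rα-/- values lay within the range of the IL-4Rα+/+ values, whose mean was 1330.0 ± 132 CPM against 1298 ± 44.6 CPM (SD, n = 3). The log2 fold change was -0.04 (SE 0.09, adjusted p = 0.910), with a 95% confidence interval from -0.26 to 0.19, that is, from 0.837-fold to 1.14-fold, and without IL-4Rα-/- replicate 2 it was -0.06. Its highest library exceeded its lowest by 1.21-fold, a narrower range than in most genes (percentile 17.8 of the genes tested).

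Per kb of exon, the mean level of Mcl1 was 384 CPM per kb. Next came the effectors Bak1 with 54.4 and Bax with 45.5 CPM per kb, then Bcl2a1b with 22.9, Bcl2a1d with 21.2, Bid with 17.2 and Bbc3 with 16.4 CPM per kb. The lowest levels were those of Bcl2l11 with 7.97, Bcl2l1 with 5.16 and Bcl2 with 4.19 CPM per kb. Neighbours in this order whose libraries did not overlap were Mcl1 and Bak1, Bax and Bcl2a1b, and Bcl2l11 and Bcl2l1, whereas all other neighbours overlapped. When levels were set against the longest transcript, Bax came before Bak1 and Bid moved to rank 4, ahead of the Bcl2a1 copies. Of the windows of 75 bases, the read length, 68.4% in Bcl2a1b and 67.6% in Bcl2a1d also occurred in another gene. Their levels per kb are therefore understated, and their places in this order, including the gap to Bax, are not settled.

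Bcl2 varied more between mice than 98.1% of all genes tested. BCL2 is the founding pro-survival protein of the family, and its gene (ENSMUSG00000057329) lies on the minus strand at chr1:106538178-106714274, where the antisense gene D630008O14Rik shares 4.67% of its 75-base windows. The gene read 90.3, 48.8 and 19.9 CPM in IL-4Rα+/+ replicates 1, 2 and 3, and 25.0, 10.3 and 35.6 CPM in IL-4Rα-/- replicates 1, 2 and 3. IL-4Rα+/+ replicates 1 and 2 were the highest, but IL-4Rα+/+ replicate 3 lay below IL-4Rα-/- replicates 1 and 3, so the genotypes overlapped. The means were 53.0 ± 35.4 and 23.7 ± 12.7 CPM (SD, n = 3), and the log2 fold change was -1.16 (SE 0.62, 95% confidence interval from -2.64 to 0.32, adjusted p = 0.639). This was the widest difference among the members and the one with the largest SE. The span from the lowest to the highest mouse was 8.74-fold. Without IL-4Rα+/+ replicate 1 the log2 fold change was -0.54, and without IL-4Rα-/- replicate 2 it was -0.80.

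Bcl2l1 (ENSMUSG00000007659, chr2:152780668-152831728, minus strand), which encodes BCL-xL, read 24.9, 21.0 and 19.6 CPM in IL-4Rα+/+ and 24.6, 23.8 and 27.9 CPM in IL-4Rα-/- replicates 1, 2 and 3. The genotypes overlapped only through IL-4Rα+/+ replicate 1. The log2 fold change was 0.22 (SE 0.12, 95% confidence interval from -0.07 to 0.51, adjusted p = 0.642), and it stayed between 0.15 and 0.32 when any 1 library was left out, at 0.27 without IL-4Rα-/- replicate 2.

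The Bcl2a1 genes encode A1, a pro-survival protein of leukocytes, and lie as near-identical copies on mouse chromosome 9. The first 120 coding bases of 3 copies are shown to mark where these closely alike copies differ. They are from the GRCm38 transcripts of Gencode, with capitals at the 7 positions where the copies are not all the same, and Bcl2a1a, which is no member, is added for comparison. Bcl2a1b (ENSMUSG00000089929) spans chr9:89199209-89207827 and Bcl2a1d (ENSMUSG00000099974) chr9:88723285-88731914. The windows shown, within their coding exons, are chr9:89199360-89199479 on the plus strand for Bcl2a1b, chr9:88731600-88731719 on the minus strand for Bcl2a1d and chr9:88957051-88957170 on the plus strand for Bcl2a1a.
Bcl2a1b: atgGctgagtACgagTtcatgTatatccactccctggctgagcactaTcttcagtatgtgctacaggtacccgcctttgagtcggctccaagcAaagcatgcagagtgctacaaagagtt
Bcl2a1d: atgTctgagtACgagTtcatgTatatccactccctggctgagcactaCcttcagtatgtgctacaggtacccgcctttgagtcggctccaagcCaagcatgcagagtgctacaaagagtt
Bcl2a1a: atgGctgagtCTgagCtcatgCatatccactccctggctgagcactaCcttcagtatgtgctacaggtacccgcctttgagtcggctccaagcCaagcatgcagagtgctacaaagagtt

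Over all 516 annotated coding bases, Bcl2a1b and Bcl2a1d differed at 6 positions (98.8% identity). Of the windows of 75 bases, the read length, 68.4% in Bcl2a1b and 67.6% in Bcl2a1d also occurred in another gene. Of 743 windows of Bcl2a1b, 328 were shared with Gm29094, which overlaps it on the same strand, 323 with Bcl2a1d and 191 with Bcl2a1a. Of 789 windows of Bcl2a1d, 401 were shared with Bcl2a1a, 323 with Bcl2a1b and 143 with Gm29094. A window can be shared with more than 1 of these genes. Reads from such windows map to more than 1 place or to overlapping genes and were not counted, so the levels of both copies rest on the remaining windows and are understated per kb. Multimapping reads made up 8.3% to 8.86% of all reads in IL-4Rα+/+ and 9.02% to 9.35% in IL-4Rα-/- libraries, and their part in the values of these copies was not tested.

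Bcl2a1b read 32.0, 19.0 and 10.4 CPM in IL-4Rα+/+ and 21.5, 9.21 and 20.4 CPM in IL-4Rα-/- replicates 1, 2 and 3. Bcl2a1d read 35.8, 19.0 and 8.42 CPM in IL-4Rα+/+ and 20.5, 8.16 and 18.0 CPM in IL-4Rα-/- replicates 1, 2 and 3. Both copies were highest in IL-4Rα+/+ replicate 1 and lowest in IL-4Rα-/- replicate 2, and the genotypes overlapped. The log2 fold change was -0.27 (SE 0.47, 95% confidence interval from -1.38 to 0.85, adjusted p = 0.853) for Bcl2a1b and -0.44 (SE 0.55, 95% confidence interval from -1.76 to 0.88, adjusted p = 0.804) for Bcl2a1d. Without IL-4Rα+/+ replicate 1 these became 0.21 and 0.18, and without IL-4Rα-/- replicate 2 they were 0.03 and -0.13, so single mice set the sign. The sum over Bcl2a1a, Bcl2a1b and Bcl2a1d was 97.4, 54.7 and 26.4 CPM in IL-4Rα+/+ and 61.0, 26.9 and 58.4 CPM in IL-4Rα-/- replicates 1, 2 and 3. Its means of 59.5 ± 35.7 and 48.8 ± 19.0 CPM (SD, n = 3) did not differ by more than the spread between mice (two-sided exact permutation test, p = 1, with 0.10 as the lowest p that 3 against 3 mice allow). Bcl2a1b held 32.8% to 39.3% of that sum and Bcl2a1d 30.3% to 36.8%, so the copies kept similar shares while their sum varied between mice.

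Bax was the steadiest member. Its protein moves from the cytosol to mitochondria on activation, and the gene (ENSMUSG00000003873) lies on the minus strand at chr7:45461697-45466898, where Gm45808 shares 6.84% of its 75-base windows. The gene read 69.0, 69.7 and 70.3 CPM in IL-4Rα+/+ and 72.8, 76.7 and 71.5 CPM in IL-4Rα-/- replicates 1, 2 and 3. Every IL-4Rα-/- library lay above every IL-4Rα+/+ library, with means of 73.7 ± 2.71 against 69.6 ± 0.626 CPM (SD, n = 3). The difference was small, at a log2 fold change of 0.08 (SE 0.06, 95% confidence interval from -0.07 to 0.24, adjusted p = 0.720), and the two-sided exact permutation test gave p = 0.10, the smallest possible. Without IL-4Rα-/- replicate 2 the log2 fold change was 0.05, and with the trend of counts with exon length removed it was 0.02. Markers of other cells were also higher in IL-4Rα-/- libraries without overlap: summed over their lists, erythroid genes ranged from 173 to 435 CPM against 61.4 to 129.6 CPM, eosinophil, basophil and mast cell genes from 136 to 219 CPM against 80.2 to 94.4 CPM, and red pulp macrophage genes from 3928 to 6128 CPM against 3020.3 to 3475 CPM. In these lists 12 of 12, 10 of 11 and 10 of 10 genes tested were higher. Of these, 11, 8 and 3 were higher without overlap, as were 7.63% of all genes tested. The neutrophil list overlapped in its sum, at 124 to 637 CPM against 61.3 to 255 CPM. Of its 11 genes tested, 10 were higher and 1 lower, with a median log2 fold change of 1.11, and 2 were higher without overlap. The other lists of non-monocyte genes overlapped in their sums and held 0 tested genes without overlap. Higher were 8 of 8 genes tested for B and plasma cells, 9 of 9 for pancreas and 3 of 3 for megakaryocytes and platelets. For T and NK cells 5 were higher and 4 lower, and for dendritic cells 2 were higher and 5 lower. The neutrophil marker Ly6g had 0 to 9 counts per library. The part of these other cells in the values of Bax and of the other members was not tested.

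Bak1 (ENSMUSG00000057789, chr17:27019810-27029009, minus strand), whose protein sits in the mitochondrial outer membrane, read 151, 141 and 122 CPM in IL-4Rα+/+ and 114, 139 and 118 CPM in IL-4Rα-/- replicates 1, 2 and 3. IL-4Rα-/- replicate 2 lay among the IL-4Rα+/+ libraries, and the other two IL-4Rα-/- libraries were the lowest of all. The log2 fold change was -0.16 (SE 0.12, 95% confidence interval from -0.44 to 0.12, adjusted p = 0.703), and -0.25 without IL-4Rα-/- replicate 2 (adjusted p = 0.851). Ggnbp1 on the opposite strand shares 12.8% of the 75-base windows of Bak1.

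The BH3-only genes all overlapped between the genotypes over all 6 libraries. Bcl2l11 (ENSMUSG00000027381, chr2:128126038-128162547, plus strand) encodes BIM, which is induced when growth factors are withdrawn. It read 63.7, 62.4 and 69.5 CPM in IL-4Rα+/+ and 60.8, 71.9 and 55.8 CPM in IL-4Rα-/- replicates 1, 2 and 3. The values overlapped, with a log2 fold change of -0.05 (SE 0.11, 95% confidence interval from -0.31 to 0.21, adjusted p = 0.879). Without IL-4Rα-/- replicate 2 it was -0.16 (adjusted p = 0.863), and the remaining IL-4Rα-/- libraries lay below all IL-4Rα+/+ libraries, while 23.7% of all genes tested did not overlap, in either direction, with that library left out. Bid (ENSMUSG00000004446, chr6:120891930-120916853, minus strand), whose protein is cut by caspase-8 and so links death receptors to mitochondria, read 49.1, 52.9 and 74.9 CPM in IL-4Rα+/+ and 49.9, 72.9 and 65.6 CPM in IL-4Rα-/- replicates 1, 2 and 3. Its highest values were in IL-4Rα+/+ replicate 3 and IL-4Rα-/- replicate 2, the libraries in which Bcl2 was lowest. The log2 fold change was 0.09 (SE 0.20, 95% confidence interval from -0.39 to 0.58, adjusted p = 0.888), and it turned to -0.03 without IL-4Rα-/- replicate 2, as it did without IL-4Rα+/+ replicate 1. Bcl2l13 on the opposite strand shares 15.7% of the windows of Bid.

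Bbc3 (ENSMUSG00000002083, chr7:16308393-16318205, plus strand), which encodes PUMA and is a target of p53, followed the same order across mice as Bcl2a1d. It read 49.2, 39.2 and 29.1 CPM in IL-4Rα+/+ and 40.9, 15.9 and 34.8 CPM in IL-4Rα-/- replicates 1, 2 and 3. The highest library was IL-4Rα+/+ replicate 1 and the lowest IL-4Rα-/- replicate 2, with a 3.10-fold span, and the genotypes overlapped. The log2 fold change was -0.36 (SE 0.36, 95% confidence interval from -1.21 to 0.49, adjusted p = 0.764), and -0.05 without IL-4Rα-/- replicate 2.

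**Figure D2:**
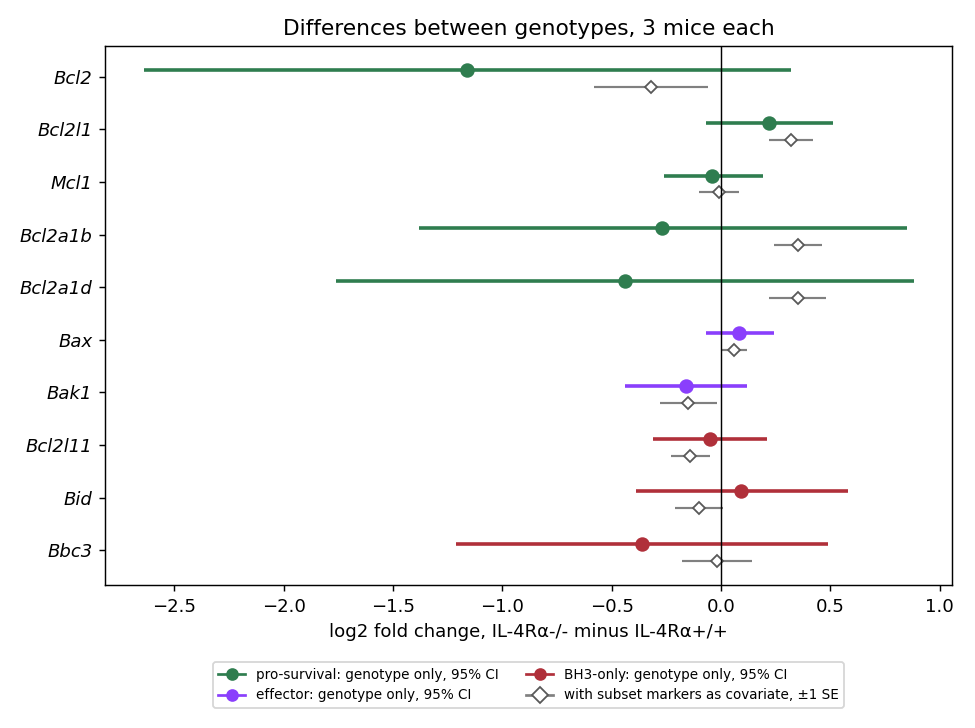
Log2 fold change of each member, IL-4Rα-/- minus IL-4Rα+/+, with its 95% confidence interval (filled points, coloured by role) and with the monocyte subset markers as a covariate, with 1 SE (open diamonds). All 10 intervals include 0, and those of Bcl2, Bcl2a1b, Bcl2a1d and Bbc3 are the widest.

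The balance of pro-survival to pro-death transcripts was alike in its mean. The summed CPM per kb of the 5 pro-survival genes was 3.49, 2.87 and 2.92 times that of the 5 effector and BH3-only genes in IL-4Rα+/+, and 3.23, 2.93 and 3.12 times in IL-4Rα-/- replicates 1, 2 and 3. On the log2 scale these ratios averaged 1.62 ± 0.16 and 1.63 ± 0.07 (SD, n = 3), with overlap. Mcl1 alone made up 81.8%, 86.7% and 92.9% of the pro-survival sum in IL-4Rα+/+ and 86.6%, 93.6% and 86.9% in IL-4Rα-/- replicates 1, 2 and 3. With Mcl1 left out the ratio was 0.634, 0.383 and 0.208 in IL-4Rα+/+ and 0.433, 0.188 and 0.410 in IL-4Rα-/- replicates 1, 2 and 3, which varied more within each genotype than between the genotypes. Both Bcl2a1 copies are understated per kb, as given above, which raises the share of Mcl1 and lowers these ratios. With both copies left out, the mean log2 balance was 0.03 higher in IL-4Rα-/- than in IL-4Rα+/+ mice.

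Bcl2, both Bcl2a1 copies and Bbc3 varied between mice in an order that the markers of monocyte subsets shared. Mouse monocytes comprise inflammatory Ly6C-high cells, which carry Ccr2 and Ly6c2, and patrolling Ly6C-low cells, which arise from them and depend on Nr4a1. The mean log2 CPM of the Ly6C-low markers Cx3cr1, Nr4a1 and Treml4 minus that of Ly6c2 and Ccr2 was 1.37, 0.25 and -0.82 in IL-4Rα+/+ and 0.25, -1.58 and -0.19 in IL-4Rα-/- replicates 1, 2 and 3. In IL-4Rα+/+ mice this difference and the levels of Bcl2, Bcl2a1b, Bcl2a1d and Bbc3 were all highest in replicate 1 and lowest in replicate 3. Among IL-4Rα-/- mice, replicate 2 was lowest in all of them, and replicate 1 was highest except for Bcl2, which was highest in replicate 3. Bid was lowest in IL-4Rα+/+ replicate 1 and highest in IL-4Rα+/+ replicate 3, and Mcl1, Bax, Bak1, Bcl2l11 and Bcl2l1 stayed within a 1.42-fold range in all 6 libraries. Ccr2 itself read 380.4, 1045 and 1668 CPM in IL-4Rα+/+ and 826, 2008 and 979 CPM in IL-4Rα-/- replicates 1, 2 and 3, so the subset markers overlapped between the genotypes. These are bulk samples, in which fewer cells of a type and less RNA per cell cannot be told apart. The libraries with many Xist reads, IL-4Rα+/+ replicate 1 with 15739 counts and IL-4Rα-/- replicate 3 with 13512 counts against at most 103 counts elsewhere, were also those with the most Bcl2 reads of their genotype, and the part of this in the Bcl2 values was not tested.

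**Figure D3:**
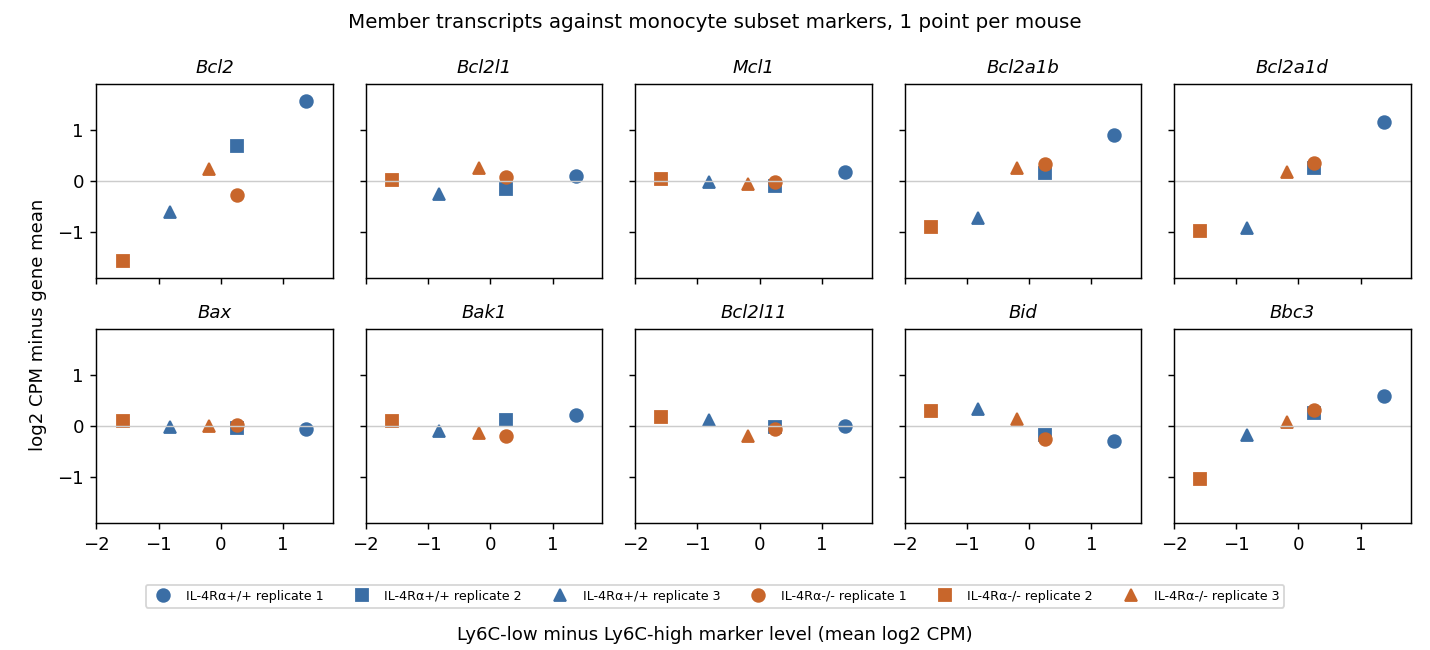
Log2 CPM of each member minus its mean over 6 libraries, against the Ly6C-low minus Ly6C-high marker level (mean log2 CPM) of the same library. Bcl2, Bcl2a1b, Bcl2a1d and Bbc3 are lowest in IL-4Rα-/- replicate 2, at a marker level of -1.58, and highest in IL-4Rα+/+ replicate 1, at 1.37, while Mcl1 and Bax stay close to 0.

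With the subset marker level as a covariate, a fit chosen after seeing the data, the log2 fold change of Bcl2 was -0.32 (SE 0.26, adjusted p = 0.702) and that of Bbc3 -0.02 (SE 0.16, adjusted p = 0.973). Bcl2a1b and Bcl2a1d changed sign, to 0.35 (SE 0.11, adjusted p = 0.409) and 0.35 (SE 0.13, adjusted p = 0.440). Bcl2l1 was at 0.32 (SE 0.10, adjusted p = 0.417) and Mcl1 at -0.01 (SE 0.09, adjusted p = 0.987). No member passed the threshold in that fit either (0 of 10), whereas 3 of 10 (Bcl2l1, Bcl2a1b and Bcl2a1d, all higher) had an unadjusted p under 0.05, against 1493 of 13849 genes (10.8%, with 5.62% higher). The covariate was measured in the same 6 libraries as the members, so this fit describes how the values move together.

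The patterns of Bcl2a1b and Bcl2a1d across mice were close despite their wide range, with a root mean square difference of 0.15 in centred log2 CPM over the 6 libraries, and Bcl2a1b and Bbc3 differed by 0.28. Among the steady members, Mcl1 and Bax differed by 0.10. Bcl2 differed from Bcl2a1d by 0.45 and from Bid by 1.19, as it had the widest range. Among 12112 genes with a mean of at least 1 CPM, the patterns most like that of Bcl2 were those of H2-Q6 and H2-Q5 (both 0.13), which belong to a multigene family and may share reads, and of Art2a-ps (0.18). For Bcl2a1d they were Stap2 and Mreg (both 0.08) and Rps6ka2 (0.11), and for Bcl2a1b Spint2 (0.05), Socs2 (0.07) and Asprv1 (0.08).

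The rest of the family was also without a call. Of 17 other BCL2 family genes, 13 were tested, 9 lower and 4 higher in IL-4Rα-/- monocytes, with a median log2 fold change of -0.12 and 0 at an unadjusted p under 0.05. The most abundant per kb were Pmaip1, which encodes the BH3-only protein NOXA that binds MCL1, with 48.2 CPM per kb, Bnip3l with 34.8 and Becn1 with 28.0 CPM per kb. Pmaip1 read 181, 149 and 103 CPM in IL-4Rα+/+ and 145, 92.4 and 119 CPM in IL-4Rα-/- replicates 1, 2 and 3 (log2 fold change -0.28, SE 0.24, adjusted p = 0.730). Bik, too low to be tested, had 0, 0 and 1 counts in IL-4Rα+/+ and 3, 5 and 3 counts in IL-4Rα-/- replicates 1, 2 and 3. Of 10 genes of mitochondrial release and outer membrane channels, 3 were lower and 7 higher, and 0 reached an unadjusted p of 0.05. Diablo, which encodes an inhibitor of IAP proteins, read 8.64, 8.97 and 8.68 CPM in IL-4Rα+/+ and 8.18, 7.04 and 8.29 CPM in IL-4Rα-/- replicates 1, 2 and 3, lower without overlap. Vdac3, an outer membrane channel, was higher without overlap at 45.3 to 48.1 CPM against 41.4 to 45.0 CPM.

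All 11 transcription factor genes known to act on members had lower fitted levels in IL-4Rα-/- monocytes, with a median log2 fold change of -0.12. Their log2 fold changes ran from -0.53 to -0.02, so some were close to unchanged. Of all 13849 genes tested, 6719 were lower and 7130 higher. None of the 11 genes passed in edgeR (0 of 11) or DESeq2 (0 of 11). The unadjusted p was under 0.05 in 3 of them, all lower, against 4.37% of all genes tested. The genotypes did not overlap in 4 of the 11, against 7.87% of all genes that lay lower without overlap. The list was chosen with earlier results of these data known, so its counts are not independent of them. Foxo3, a factor that induces Bcl2l11 and Bbc3, read 134, 133 and 123 CPM in IL-4Rα+/+ and 106, 109.7 and 107 CPM in IL-4Rα-/- replicates 1, 2 and 3. Its genotypes did not overlap, at a log2 fold change of -0.28 (SE 0.07, adjusted p = 0.618), whereas Bcl2l11 and Bbc3 overlapped. Rel, an NF-κB subunit that acts on Bcl2a1, read 246, 204 and 150.3 CPM in IL-4Rα+/+ and 156, 111 and 149 CPM in IL-4Rα-/- replicates 1, 2 and 3 (log2 fold change -0.53, SE 0.21, adjusted p = 0.618), with overlap. Stat5a (log2 fold change -0.18, SE 0.07) and Stat5b (-0.15, SE 0.07) lay lower without overlap, with adjusted p-values of 0.618 and 0.623. Stat6, the main factor downstream of IL-4Rα, read 513, 472 and 478 CPM in IL-4Rα+/+ and 454, 448 and 468 CPM in IL-4Rα-/- replicates 1, 2 and 3, also without overlap, at a log2 fold change of -0.09 (SE 0.07, adjusted p = 0.704). After the trend with exon length was removed, 1 of the 11 kept an unadjusted p under 0.05. This was Foxo3 at -0.22 (unadjusted p = 0.0175), whereas Rel stood at -0.48 (unadjusted p = 0.0542) and Stat5a at -0.12 (unadjusted p = 0.102).

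Of the genes that act on the MCL1 protein, 4 were tested and 2 had an unadjusted p under 0.05, both lower, against 4.37% of all genes tested. This list was also chosen with earlier results of these data known, so its counts are not independent of them. Huwe1, a ubiquitin ligase for MCL1, read 274, 333 and 313 CPM in IL-4Rα+/+ and 228, 254 and 251 CPM in IL-4Rα-/- replicates 1, 2 and 3. Usp9x, which removes ubiquitin from MCL1, read 122, 144 and 132 CPM in IL-4Rα+/+ and 113, 104 and 116 CPM in IL-4Rα-/- replicates 1, 2 and 3. Both were lower without overlap, as were 7.87% of all genes tested, at log2 fold changes of -0.33 (SE 0.10) and -0.26 (SE 0.09), each with an adjusted p of 0.618. Both have long transcripts, and with the exon length trend removed the log2 fold changes were -0.15 and -0.13, with unadjusted p-values of 0.147 and 0.127.

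**Figure D4:**
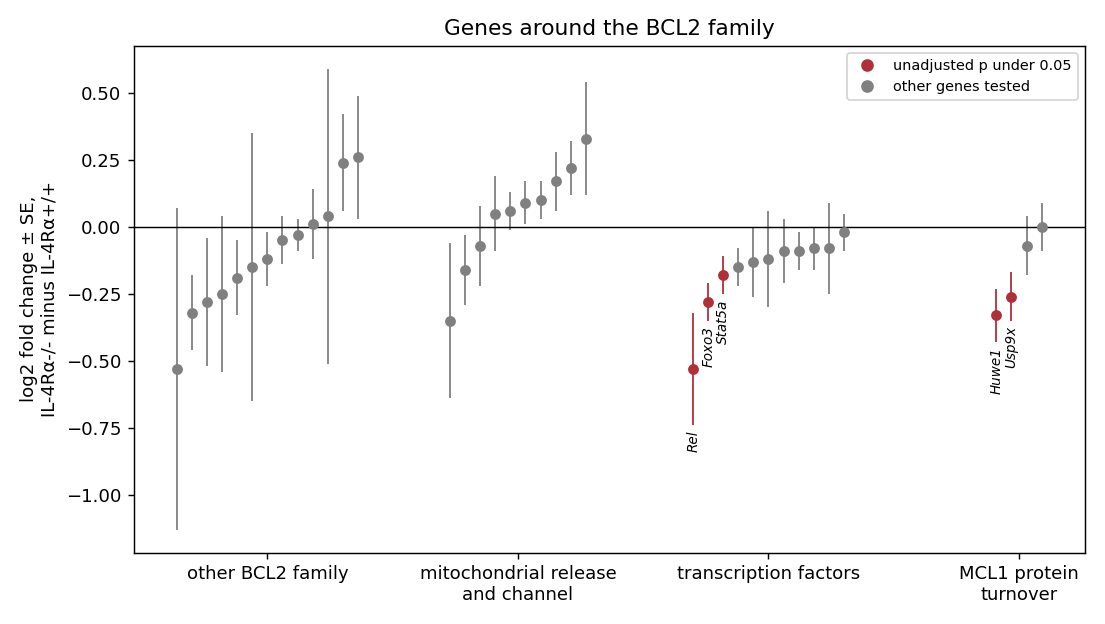
Log2 fold change with 1 SE, IL-4Rα-/- minus IL-4Rα+/+, of each gene tested in the 4 lists around the members, sorted within each list. Points of the 5 genes with an unadjusted p under 0.05 (Rel, Foxo3, Stat5a, Huwe1 and Usp9x) are red and lie below 0, and no gene passed after adjustment.

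Promoters of all 10 members were found in RefSeq (GRCm38.p6, 15 windows from 250 bases before to 50 bases after the start of transcription). The FOXO motif TGTTTAC, searched on both strands, occurred in windows of Bbc3 and Bcl2l11, and in 3.65% of all 32851 promoter windows. Both stretches are shown because Foxo3 was among the genes that did not overlap. They are given on the strand of the gene with the match in capitals, which in Bcl2l11 lies on the opposite strand, and span chr7:16310074-16310120 (plus strand) and chr2:128125791-128125837 (plus strand).
Bbc3: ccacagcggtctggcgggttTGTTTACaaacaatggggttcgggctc
Bcl2l11: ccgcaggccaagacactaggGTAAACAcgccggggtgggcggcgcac

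The STAT6 motif, TTC and GAA with 4 bases between them, occurred in a window of Bcl2l1 and in 6.95% of all windows, and the STAT motif with 3 bases between them in none of the member windows (0) and in 8.3% of all. The NR4A motif AAAGGTCA was found in 0 member windows and in 1.51% of all. A κB consensus was present for Bbc3 and Bcl2l1 (4.51% of all windows) and a p53 half-site for Bax (8.36% of all windows). These matches describe the letters of the windows, and no binding was measured.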

How the data were processed

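Splenic monocytes, purified by negative selection, gave polyadenylated RNA for directional libraries read as single-end reads of 75 bases. The authors aligned them to GRCm38 with STAR 2.6.1a and Gencode M23 and deposited raw counts per gene, without normalization, 1 column per library. The strand setting is not named in the sources used here. Ambiguous reads made up 1.78% to 1.92% of each library, nearer to the 1.02% to 1.15% foreseen for stranded counting than to the 7.36% to 7.68% without strand. Windows shared only with a gene on the opposite strand, as in Bcl2, Bak1 and Bid, would lose reads only in counting without strand. The submitters' processing notes also list RSEM. STAR's lines for reads not on genes (21.1% to 22.8%) were left out.

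Symbols, exon lengths and positions came from Gencode M21, which held 55154 of the 55421 identifiers. Genes were kept by filterByExpr (minimum count 10), scaled by TMM and compared in edgeR 4.0.16 (R 4.3.3) by its quasi-likelihood test, and p-values were adjusted over 13849 genes after Benjamini and Hochberg, at the study's threshold of 0.15. All p-values and adjusted p-values without another name are from this test. DESeq2 1.42.0 was an alternative. Figures were drawn with matplotlib. Log2 CPM for patterns used a prior count of 2, and loess trends a span of 0.5. In simulated data with 200 genes of 13849 planted at 4-fold in the comparison of genotypes, edgeR recovered 90.5% and called 36 others, and DESeq2 recovered 91.5% and called 96 others. These counts were drawn independently for each gene, without differences that many genes share within a library. The planted fold exceeded that of every member, so the shares recovered do not apply to the members. In the real data edgeR did not call Il4ra, at 0.314-fold without overlap. No pair of libraries agreed within sampling noise (chi-square per gene of 20.4 or more), so all 6 were counted as separate.

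The members and gene lists were chosen with earlier results of these data known. Named genes were the members, Il4ra, list genes with an unadjusted p under 0.05 or without overlap, the 3 most abundant other family genes per kb, and the 3 genes most like each of the 3 members with the widest range. Stat5b and Stat6 came under the rule on overlap. The subset, Xist and Ly6g values were chosen after values were seen. Alternatives changed scaling, filter, test, threshold, replicate block, length trend and covariate, and left out each library in turn.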

Additional observations from a re-analysis of the deposited data

How the results depend on the processing

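Over 13 alternatives, 119 of 130 log2 fold changes of members kept their direction and stayed without a call, and 11 in 5 members changed sign, 7 of them when a library was left out. Bcl2, Bcl2l1, Bax, Bak1 and Bbc3 never changed sign. DESeq2 called 80 genes, none of them a member (0), where edgeR called 0 of 13849 with 1120 at an unadjusted p under 0.05, and it called Il4ra at -1.67. The subset covariate, chosen after seeing the data, gave 0.35 for Bcl2a1b, 0.35 for Bcl2a1d and -0.10 for Bid, and removal of the length trend gave 0.02 for Bcl2l11. With 1 library left out, log2 fold changes ranged from -1.58 to -0.54 for Bcl2, -0.09 to 0.05 for Mcl1, -0.58 to 0.21 for Bcl2a1b, -0.82 to 0.18 for Bcl2a1d, -0.16 to 0.03 for Bcl2l11 and -0.03 to 0.30 for Bid. Members without overlap then numbered 1 to 3. Without IL-4Rα+/+ replicate 1 there were 2 (Bcl2l1 and Bax, both higher; 24.4% of all genes), without IL-4Rα+/+ replicate 3 there were 3 (Bax higher, Bcl2 and Bak1 lower; 37.1%), and without IL-4Rα-/- replicate 2 there were 3 (Bax higher, Bak1 and Bcl2l11 lower; 23.7%). The log2 balance of pro-survival to pro-death transcripts differed between genotypes by -0.05 to 0.09 under its alternatives. Same-numbered libraries had correlations of 0.185, -0.271 and -0.296 in their deviations from the group means, which were not of 1 sign. Whether same-numbered mice shared a litter or batch was not tested. A replicate block called 0 genes, with 765 at an unadjusted p under 0.05 and a smallest adjusted p of 0.812. The depth leaves every member well above the filter, and the spread between 3 mice per genotype limits the precision.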
